A study of Mus musculus with 34 samples.

Results

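The mRNA levels of 10 genes of ceramide breakdown and sphingosine phosphate metabolism were followed in the LV of mice after MI, with and without modified mRNA (modRNA). The genes were Asah1, Asah2, Acer2, Acer3, Sphk1, Sphk2, Sgpl1, Sgpp1, S1pr1 and S1pr3, chosen by symbol. All 10 were found among the 14552 genes of the table of uninjected hearts (10 libraries, here the first table) and among the 17406 genes of the table of modRNA hearts (24 libraries, the second table), and each passed the filter of both tables, a mean over all libraries of 1 CPM or more, CPM being read counts scaled to the size of the library.

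Ceramide is a membrane lipid that ceramidases split into sphingosine and a fatty acid. Sphingosine kinases then add a phosphate to make sphingosine 1-phosphate (S1P), which is either dephosphorylated again, broken down for good by a lyase, or exported to act on a family of G protein-coupled receptors. In the heart and its vessels, S1P is known for its part in endothelial barrier function and in vascular tone, and ceramide accumulates in ischemic tissue.

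All mice were of the CFW (Swiss Webster) stock, and their age is not given in the sources used here. For MI, the left anterior descending artery was permanently ligated. The first table holds uninjected hearts at 4 h (n = 3) and 24 h (n = 4) post-MI and 3 controls, which are titled Sham but labelled as having had no operation. The second table holds hearts injected with AC modRNA or Luc modRNA at the infarct border just after ligation, collected at 4 h (4 and 4 libraries), 24 h (3 and 3) and 48 h (4 and 4), with 2 uninjected hearts that had a sham operation and were collected at 4 h. Luc modRNA carries firefly luciferase, a reporter, whereas the labels do not spell out AC. The labels of the second table do not say that each library came from its own mouse, so its p-values measure the spread between libraries, which may be technical. The samples were pieces of LV and hold a mix of cell types, in which fewer cells of a type and less RNA per cell cannot be told apart.

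The estimated depth was between 12553440 and 18952669 reads per library in the first table and between 17091513 and 22192765 in the second. All 5 cardiomyocyte markers were present in every group, with summed levels of 9123 to 45824 CPM. The library titles put the sham and 4 h libraries of the second table in a numbering of their own, the 48 h libraries in another and the 24 h libraries in none, so AC and Luc were compared within a set, while sham against 24 h or 48 h cannot be told apart from the set. In the Luc group at 48 h, libraries 1 and 3 correlated at 0.984 with each other and less with libraries 2 and 4, and the calls that change without them are given both ways.

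Asah1 encodes acid ceramidase, the lysosomal ceramidase, and lies on chromosome 8 of mm10 (41340646 to 41374698, minus strand). It was the only member that differed between AC and Luc hearts at all 3 times. At 4 h, the 4 AC libraries read 13703, 5597, 5296 and 9230 CPM, while the 4 Luc libraries read 25.7, 27.2, 23.9 and 25.8 CPM. Every AC library thus stood far above every Luc library, and Asah1 took between 0.788% and 1.74% of the summed CPM of the AC libraries. The means were 8456 ± 3928 CPM (SD, n = 4) and 25.6 ± 1.35 CPM (SD, n = 4), a ratio of 330. On the scale of log2(CPM + 1), on which all fold changes below were tested, the difference was 8.20 (standard error 0.29, limma q = 6.2e-15), where the q value is adjusted over all 12555 genes tested.

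**Figure D1:**
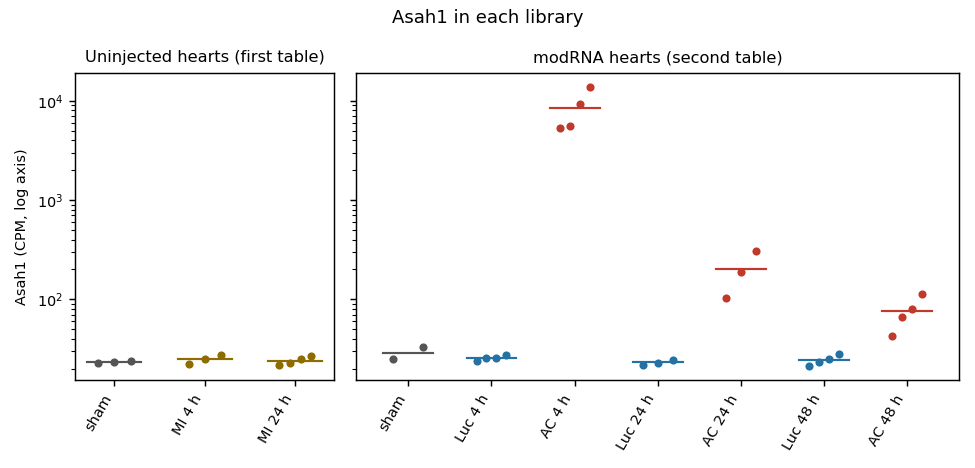
Asah1 in CPM, on a log axis, in each library of the uninjected hearts (left) and of the modRNA hearts (right), with points for libraries and lines for group means. The 4 AC libraries at 4 h sit between 5296 and 13703 CPM, those at 24 h between 104 and 305 CPM and those at 48 h between 42.5 and 112 CPM, while sham, Luc and uninjected MI libraries sit between 21.4 and 32.9 CPM.

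At 24 h, the AC libraries read 305, 104 and 190 CPM and the Luc libraries 22.6, 22.0 and 24.7 CPM. The groups did not overlap, and the ratio of the means had come down to 8.66, with a log2 difference of 2.93 (standard error 0.34, limma q = 0.00016). At 48 h, the AC libraries read 42.5, 112, 66.4 and 80.3 CPM and the Luc libraries 28.2, 23.5, 21.4 and 25.1 CPM. The lowest AC library still lay above the highest Luc library, with a ratio of 3.07 and a log2 difference of 1.50 (standard error 0.29, limma q = 0.0017). The q value at 24 h was 0.24 when only the 6 hearts compared were fitted.

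The difference between AC and Luc in mean CPM was 8431 at 4 h, 177 at 24 h and 50.9 at 48 h, which is 47.7 times less at 24 h than at 4 h and a further 3.47 times less at 48 h. Tested directly, the log2 difference was smaller by 5.27 at 24 h than at 4 h (standard error 0.45, limma q = 5.1e-07). From 24 h to 48 h it changed by -1.42 (standard error 0.45), which did not pass the test (limma q = 0.096), and between 4 h and 48 h by -6.70 (standard error 0.41, limma q = 8.5e-10). In order of their means, the AC groups at 48 h and 24 h overlapped, and the AC group at 4 h stood apart from both.

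The genes on either side of Asah1 were looked at after its values were seen. Pcm1 (chromosome 8, 41239759 to 41334088) had 34.0 ± 11.7 CPM in AC hearts and 28.4 ± 3.91 CPM in Luc hearts at 4 h. Frg1 (chromosome 8, 41397454 to 41417119) had 17.6 ± 6.23 CPM and 15.6 ± 0.68 CPM. The counts on Asah1 do not tell apart reads of an injected RNA and reads of the gene. In hearts without AC modRNA, the 10 uninjected libraries lay between 21.7 and 27.4 CPM of Asah1, and neither MI 4 h (log2 difference 0.08, 95% interval -0.17 to 0.32) nor MI 24 h (0.03, -0.19 to 0.26) differed from sham beyond the replicate spread.

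At 4 h and 24 h, none of the other 9 members passed the test between AC and Luc hearts. The lone call at each of these times, Asah1, was 0.00796% of the genes tested, so no other gene tested passed either. An unadjusted limma p under 0.05 was reached by 131 genes at 4 h and 599 genes at 24 h. Both counts are below 628, which is 5% of the genes tested. The spread of each gene was estimated over all groups together, so low counts do not show that nothing else changed. The median log2 difference of the 9 other members was 0.00 at 4 h and -0.08 at 24 h, against 0.01 and -0.03 over all genes. The lowest limma q of the 9 was 1 at 4 h and 0.99 at 24 h. In simulated libraries at these group sizes, 79 of 100 genes changed by a factor of 2 were found at 4 h and 66 of 100 at 24 h. The changed genes had a mean of 10 CPM or more, and the spread was fixed for every gene, unlike the data. These shares may thus not hold for the members.

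S1pr1 came nearest at 4 h. It encodes an S1P receptor of endothelial cells, lymphocytes and other cells (chromosome 3, 115710433 to 115715056, minus strand). The AC libraries read 71.7, 152, 71.5 and 76.0 CPM and the Luc libraries 58.4, 68.9, 68.5 and 51.7 CPM. The groups did not overlap, but library 2 of the AC group stood well above the others of its group, and the log2 difference of 0.51 (95% interval 0.09 to 0.93) had an unadjusted limma p of 0.020. At 24 h, Sphk2, the sphingosine kinase found largely in the nucleus and mitochondria (chromosome 7, 45709463 to 45718003, minus strand), was the only member besides Asah1 whose groups did not overlap, with 26.5, 25.2 and 24.2 CPM in AC and 29.5, 31.2 and 34.3 CPM in Luc libraries, and a log2 difference of -0.31 (95% interval -0.67 to 0.05, limma q = 0.99). Sphk1, the inducible sphingosine kinase (chromosome 11, 116531911 to 116536676, plus strand), read 49.3, 12.6 and 42.2 CPM in AC and 64.2, 44.0 and 46.6 CPM in Luc libraries at 24 h (log2 difference -0.75, 95% interval -1.84 to 0.34). The low library, AC library C, had summed neutrophil markers of 293 CPM against 47.9 and 80.7 CPM in the other AC libraries. Its macrophage and monocyte sum was also higher, at 159 against 90.5 and 74.4 CPM. Lower sums were those of cardiomyocyte (31338 against 37970 and 38407 CPM), fibroblast (656 against 949 and 959 CPM) and mural markers (569 against 901 and 706 CPM). The endothelial sum, at 557 CPM, lay between 546 and 654 CPM. The part of these markers was not tested.

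**Figure D2:**
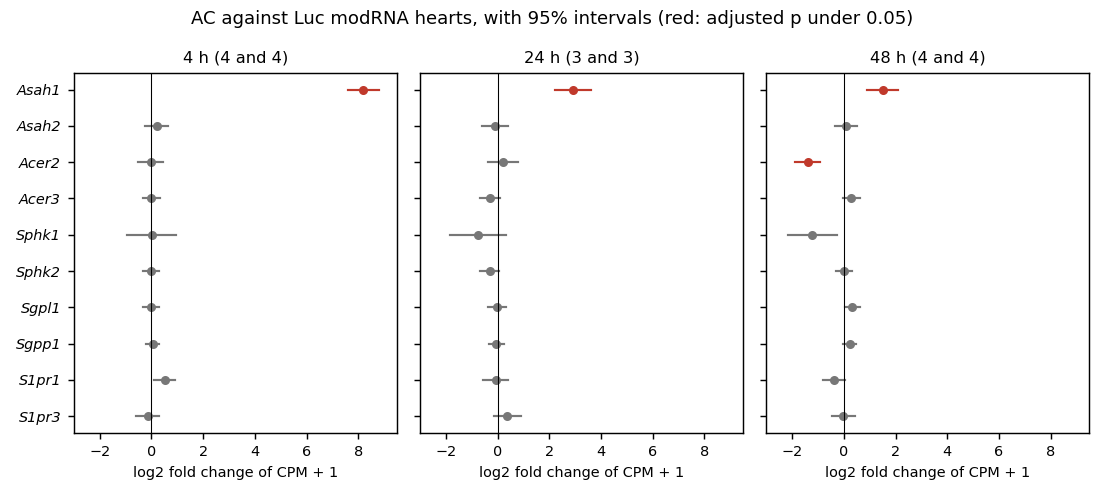
Log2 difference of CPM + 1 between AC and Luc modRNA hearts for the 10 members at 4, 24 and 48 h, with 95% intervals from limma and red marking an adjusted p under 0.05. Asah1 is red at all 3 times and Acer2 at 48 h, where its interval runs from -1.89 to -0.91.

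At 48 h, Acer2 was the other member that passed the test. Acer2 encodes the alkaline ceramidase of the Golgi apparatus (chromosome 4, 86874414 to 86932491, plus strand). The AC libraries read 14.3, 14.0, 17.6 and 12.2 CPM, and Luc libraries 1 to 4 read 62.1, 25.5, 54.0 and 28.6 CPM. Every AC library lay below every Luc library and also below both sham libraries, at 20.3 and 28.0 CPM. Acer2 was 2.93-fold lower in AC hearts by group means, with a log2 difference of -1.40 (standard error 0.24, limma q = 0.00047). Without Luc libraries 1 and 3 the log2 difference was -0.86 (limma q = 0.039).

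The log2 difference of Acer2 between AC and Luc was 0.21 at 24 h and -0.03 at 4 h. The change from 24 h to 48 h was -1.61 (standard error 0.36, limma q = 0.018) and that from 4 h to 48 h was -1.37 (standard error 0.34, limma q = 0.025). Without Luc libraries 1 and 3 neither passed the test (limma q = 0.097 and 0.22), and the second was also lost on leaving out any 1 of 6 single libraries, AC 3 or Luc 4 at 4 h, or AC 2, AC 5, Luc 1 or Luc 3 at 48 h. The first was lost without Luc library D at 24 h. As background, 0.335% of all genes had a lower AC minus Luc difference at 48 h than at 24 h by the test, 0.47% a lower difference at 48 h than at 4 h, and 0.00796%, Asah1 alone, a lower difference at 24 h than at 4 h.

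At 48 h, 12.1% of the genes tested were higher and 3.27% lower in AC than in Luc hearts, against 1 of 10 members each way. The median log2 difference over all genes was 0.14 and that of the 9 members other than Asah1 was 0.02. Rescaling each library by median ratios moved the median of all genes to 0.00 and the split of all genes from 1516 higher and 410 lower to 823 and 802, while Asah1 and Acer2 kept their directions and calls. Markers moved at this time as well. The summed cardiomyocyte markers were at 14529 to 17605 CPM in AC and 20210 to 28158 CPM in Luc libraries, with 2 of 5 lower by the test. The summed macrophage and monocyte markers were at 347 to 519 and 134 to 209 CPM, with 5 of 5 higher, and the summed fibroblast markers at 955 to 1374 and 661 to 870 CPM, with 3 of 5 higher. The summed atrial markers were at 1227 to 2966 and 533 to 1169 CPM, with 1 of 4 higher, and the summed neutrophil markers were in overlapping ranges, at 99.5 to 139 and 110 to 401 CPM, with 1 of 5 lower. The part of these markers in the results at 48 h was not tested.

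Sphk1 split the Luc hearts at 48 h. The AC libraries read 4.91, 4.29, 4.15 and 5.16 CPM, and Luc libraries 1 to 4 read 26.1, 5.70, 32.1 and 3.79 CPM. Luc libraries 1 and 3 were thus high and libraries 2 and 4 at the level of the AC libraries. The log2 difference of -1.21 (standard error 0.46) did not pass the test (limma q = 0.073). It was -0.01 without libraries 1 and 3 (limma q = 0.99) and -2.41 without libraries 2 and 4 (limma q = 5.0e-05). It passed the test without Luc library 2 (limma q = 0.031) and without Luc library 4 (limma q = 0.0067). Libraries 1 and 3 also held the higher Acer2 and S1pr1 values of the Luc group. Their cardiomyocyte sum was higher, at 28158 and 23615 CPM against 20210 and 20383 CPM. So were the endothelial sum (469 and 443 against 283 and 397 CPM), the neutrophil sum (401 and 188 against 181 and 110 CPM) and the low lymphocyte and mesothelial sums. The macrophage and monocyte sum was lower, at 174 and 134 against 209 and 185 CPM. Fibroblast, mural, atrial and red blood cell sums did not separate the pairs. The part of these markers in the split was not tested.

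The other 7 members did not pass the test at 48 h. S1pr1 read 63.6, 70.8, 75.3 and 71.4 CPM in AC and, for Luc libraries 1 to 4, 131, 75.4, 89.8 and 78.0 CPM, groups that just failed to overlap (log2 difference -0.38, 95% interval -0.79 to 0.04, limma q = 0.21). That difference was -0.13 (limma q = 0.84) without Luc libraries 1 and 3 and -0.62 (limma q = 0.053) without libraries 2 and 4. Sgpl1, the lyase that breaks S1P down irreversibly (chromosome 10, 61098642 to 61147685, minus strand), had 42.8 ± 8.92 CPM in AC and 33.5 ± 5.05 CPM in Luc hearts (log2 difference 0.34, limma q = 0.12), and passed the test without AC library 1 (limma q = 0.035). Acer3, an alkaline ceramidase of the endoplasmic reticulum and Golgi apparatus (chromosome 7, 98213660 to 98309528, minus strand), had 10.8 ± 1.11 and 8.68 ± 1.41 CPM (log2 difference 0.29, limma q = 0.22). Asah2, Sphk2, Sgpp1 and S1pr3 had log2 differences between -0.03 and 0.23.

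**Figure D3:**
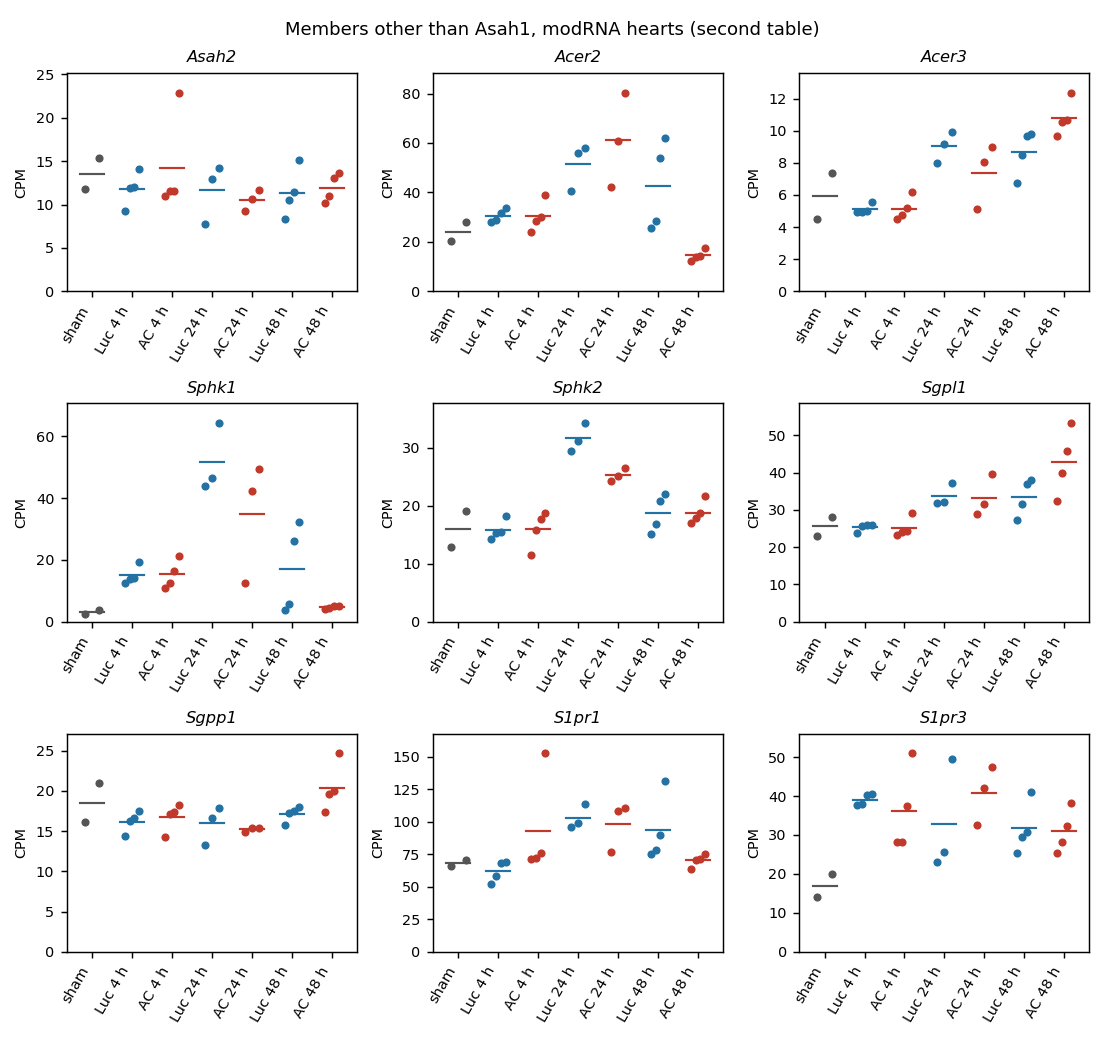
CPM of the 9 members other than Asah1 in each library of the modRNA hearts and their sham controls, on linear axes from 0, with points for libraries and lines for group means (grey sham, blue Luc, red AC). Acer2 is at 12.2 to 17.6 CPM in the AC hearts at 48 h, Sphk1 is highest in the Luc hearts at 24 h, and Luc libraries at 48 h fall into a high and a low pair for Sphk1 and Acer2.

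The uninjected hearts were compared with the controls titled Sham, called sham here. The paper describes sham-operated mice, whereas the labels give no operation. By the labels, ligation and the surgery around it cannot be told apart in this comparison. Sphk1 showed the largest fold change of the 10 members. The sham libraries read 0.759, 0.444 and 0.487 CPM, an estimated 11 to 21 reads, the MI 4 h libraries 5.30, 10.9 and 5.26 CPM and the MI 24 h libraries 43.1, 66.1, 16.9 and 25.6 CPM. The 3 groups followed each other without overlap. The mean was 12.7-fold higher than sham at 4 h (log2 difference 2.32, standard error 0.41, limma q = 0.014) and 67.3-fold higher at 24 h (4.47, standard error 0.39, limma q = 2.6e-06), and the step from 4 h to 24 h was 5.30-fold (2.15, standard error 0.39, limma q = 0.00053). The call at 4 h was lost without MI library D (limma q = 0.066), sham library H (0.074) or sham library I (0.066).

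S1pr1 rose early in the uninjected hearts. The sham libraries read 50.6, 49.4 and 44.8 CPM, the MI 4 h libraries 124, 114 and 91.4 CPM and the MI 24 h libraries 140, 147, 126 and 108 CPM. Both MI groups lay wholly above sham and overlapped each other. The mean was 2.27-fold higher at 4 h (log2 difference 1.16, standard error 0.14, limma q = 0.0012) and 2.70-fold higher at 24 h (1.40, standard error 0.13, limma q = 4.4e-06). The summed endothelial markers were at 490 to 504 CPM in sham libraries. They were at 437 to 623 CPM in MI 4 h and 358 to 558 CPM in MI 24 h libraries, so the sums overlapped. Against sham, none of the 5 passed the test at 4 h, while 1 was higher and 2 were lower at 24 h. The part of these markers in the S1pr1 result was not tested.

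These 2 members were the ones that passed the test at 4 h, a time at which 1.55% of all genes were higher than sham. At 24 h post-MI, 6 members were higher and 1 lower than sham, against 35.6% and 30.3% of all genes, and the median log2 difference was 0.43 over the members and 0.04 over all genes. Sgpl1 read 19.8, 20.4 and 22.4 CPM in sham and 50.2, 41.2, 37.5 and 45.4 CPM in MI 24 h libraries. It was thus about as far above sham as above MI 4 h, with 2.09-fold and 2.01-fold higher means (log2 differences 1.02 and 0.97, limma q = 1.3e-05 and 2.3e-05). Acer3 rose from 6.29 ± 0.62 CPM in sham to 11.9 ± 1.56 CPM (log2 difference 0.82, limma q = 0.00018).

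Asah2, the neutral ceramidase of the plasma membrane (chromosome 19, 31984651 to 32103141, minus strand), moved the other way. It read 17.9, 23.3 and 23.8 CPM in sham, 17.7, 16.0 and 19.5 CPM in MI 4 h and 5.03, 6.07, 9.42 and 6.58 CPM in MI 24 h libraries. All MI 24 h libraries lay below all others, 3.20-fold lower than sham by group means (log2 difference -1.56, standard error 0.17, limma q = 1.6e-05) and 2.62-fold lower than MI 4 h (-1.29, standard error 0.17, limma q = 7.3e-05).

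S1pr3, an S1P receptor of vascular smooth muscle and other cells (chromosome 13, 51408618 to 51422798, plus strand), went from 21.5 ± 2.64 CPM in sham to 31.4 ± 4.11 CPM at 24 h (log2 difference 0.52, limma q = 0.0097). Sphk2 read 19.5, 20.6 and 18.1 CPM in sham, 16.7, 13.6 and 16.2 CPM in MI 4 h and 24.5, 23.0, 24.4 and 23.6 CPM in MI 24 h libraries. Its groups lay in 3 separate bands, with the lowest at 4 h. The rise over sham at 24 h was 0.29 on the log2 scale (limma q = 0.020) and was lost without sham library I (limma q = 0.080), whereas that over MI 4 h was 0.60 (limma q = 0.00024).

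Between MI 4 h and MI 24 h, 4 members rose, Sphk1, Sphk2, Sgpl1 and Acer3, and Asah2 fell, against 37.2% of all genes higher and 26.7% lower. Sgpp1, a phosphatase that turns S1P back into sphingosine (chromosome 12, 75714248 to 75735730, minus strand), stayed between 20.3 and 27.7 CPM in all 10 libraries, and its log2 difference from sham was -0.01 at 24 h (95% interval -0.27 to 0.25). Acer2 ranged from 14.1 to 34.7 CPM and did not differ beyond the replicate spread at either time.

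Markers of other cells moved with time post-MI. At 24 h the summed neutrophil markers were at 283 to 1808 CPM, while all 5 were under 1 CPM in every sham library, and the summed cardiomyocyte markers were at 9123 to 16464 CPM against 30268 to 31599 CPM. At 4 h the neutrophil sum was at 7.14 to 29.9 CPM, and the cardiomyocyte sum at 29208 to 30266 CPM. The summed mural markers at 24 h were at 284 to 429 against 679 to 873 CPM in sham, with 2 of 4 lower by the test. The macrophage and monocyte sum was at 217 to 410 against 90.5 to 155 CPM, with 3 of 5 higher, and the fibroblast sum at 333 to 607 against 612 to 656 CPM, with 3 of 5 lower. The atrial sum was at 1150 to 1822 against 80.5 to 296 CPM, with 1 of the 2 atrial markers tested higher. Within the MI 24 h group, library G had the lowest neutrophil sum (283 CPM) and the lowest Sphk1, and libraries C and D the highest of both. Their part in the results for the members was not tested.

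**Figure D4:**
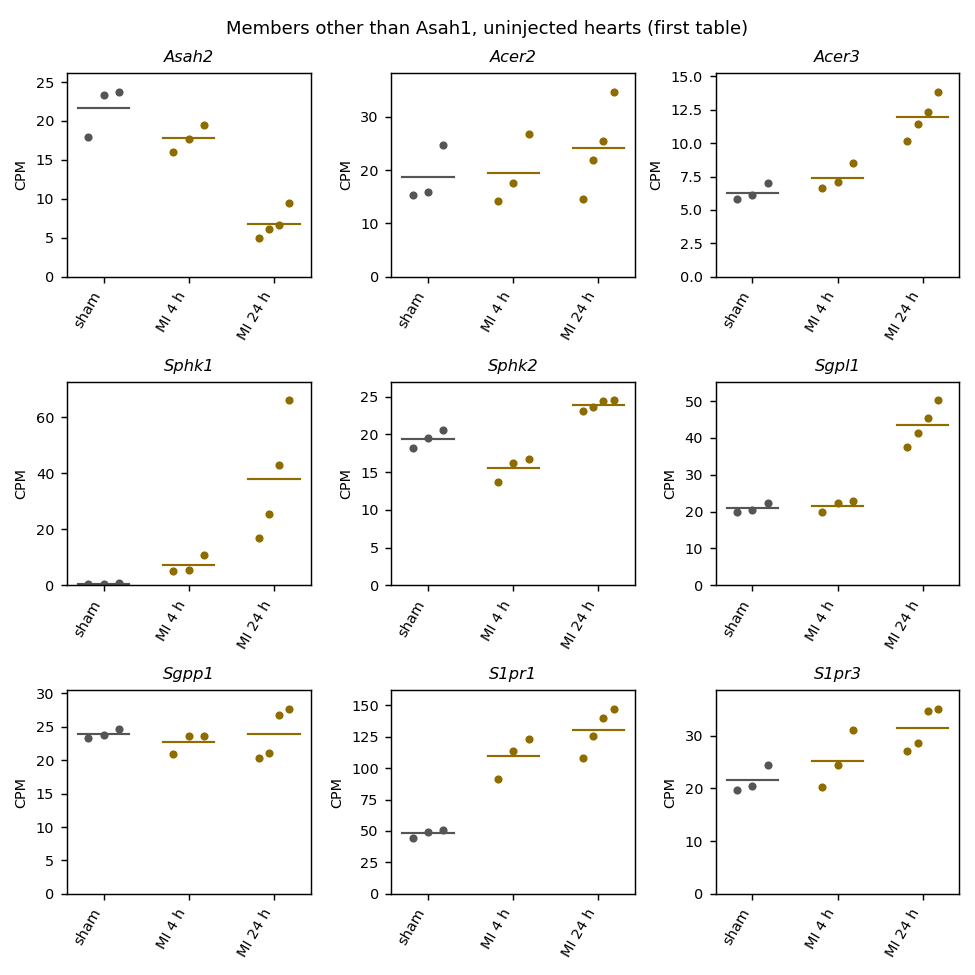
CPM of the 9 members other than Asah1 in each library of the uninjected hearts, on linear axes from 0, with points for libraries and lines for group means. Sphk1 goes from under 1 CPM in sham to 16.9 to 66.1 CPM at 24 h post-MI, S1pr1 is above sham at both times, Asah2 is below at 24 h, and Sgpp1 overlaps in all 3 groups.

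The Luc modRNA hearts gave a separate set of infarcts, compared with 2 sham libraries. These sham hearts were not injected, so ligation and the injection of modRNA cannot be told apart in the comparison with sham. At 4 h, S1pr3 rose, from 14.1 and 19.9 CPM in sham to 40.6, 37.9, 40.3 and 37.6 CPM, without overlap (log2 difference 1.17, standard error 0.26, limma q = 0.019), where 1.25% of all genes were higher. The call was lost without Luc library 1 (limma q = 0.056) or sham library 1 (limma q = 0.41). Sphk1 read 2.38 and 3.78 CPM in sham and 19.3, 14.2, 13.8 and 12.6 CPM in Luc libraries at 4 h. It was 4.86-fold higher without overlap, but its log2 difference of 1.97 (95% interval 0.82 to 3.13) did not pass the test over all genes (limma q = 0.081). It did pass with a pseudocount of 0.1 (limma q = 0.047) and with only the compared groups fitted (limma q = 0.00028). S1pr1 did not stand higher in Luc 4 h libraries (61.9 ± 8.32 CPM, n = 4) than in sham libraries (70.9 and 65.8 CPM), with a log2 difference of -0.15 (95% interval -0.66 to 0.36).

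At 24 h, 5 members were higher in Luc hearts than in sham and none was lower, against 25.3% and 8.79% of all genes. Sphk1 reached 64.2, 44.0 and 46.6 CPM, 16.8-fold above sham (log2 difference 3.69, standard error 0.59, limma q = 7.1e-05). Sphk2 read 29.5, 31.2 and 34.3 CPM against 12.9 and 19.0 CPM (log2 difference 0.97, standard error 0.19, limma q = 0.00066). Both kinases were thus above sham in every library. Acer2 had 51.6 ± 9.57 CPM (log2 difference 1.06, limma q = 0.010), Acer3 9.03 ± 0.98 CPM (0.56, limma q = 0.039) and S1pr3 32.7 ± 14.6 CPM (0.84, limma q = 0.023). The median log2 difference over all genes was 0.16, and -0.01 after rescaling by median ratios, which also ended the calls of Acer3 (limma q = 0.19) and S1pr3 (limma q = 0.075) and moved the split of all genes from 3172 higher and 1103 lower to 2294 and 2047. Single libraries also decided calls, since S1pr3 was lost without Luc library A or sham library 1, Acer3 without Luc library C, Luc library D or sham library 2, and Acer2 without sham library 1.

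At 48 h, Sphk1 (16.9 ± 14.3 CPM, log2 difference 1.70, standard error 0.56, limma q = 0.025) and S1pr3 (31.7 ± 6.57 CPM, 0.86, standard error 0.26, limma q = 0.017) were higher in Luc hearts than in sham and no member was lower, against 13.7% of all genes higher and 16.4% lower. Without Luc libraries 1 and 3 neither passed the test (limma q = 0.43 and 0.12). Sphk1 was also lost without Luc library 1, Luc library 3 or either sham library, and S1pr3 without sham library 1. The summed neutrophil markers were at 2.63 and 20.1 CPM in the sham libraries, at 70.4 to 154 CPM in Luc hearts at 4 h, at 43.0 to 83.5 CPM at 24 h and at 110 to 401 CPM at 48 h. The red blood cell sum was at 1033 to 1567 CPM in Luc hearts at 4 h against 122 to 416 CPM in sham. The atrial sum, at 60.7 to 117 CPM in sham, was at 362 to 603 CPM at 24 h, with 4 of 4 markers higher, and at 533 to 1169 CPM at 48 h, with 3 of 4 higher. The fibroblast sum, at 549 to 561 CPM in sham, was at 781 to 1009 CPM at 24 h, with 3 of 5 higher, and at 661 to 870 CPM at 48 h, with 2 of 5 higher. The cardiomyocyte sum, at 26353 to 31820 CPM in sham, was at 35499 to 45824 CPM at 24 h, with 2 of 5 higher and 1 lower. At 48 h it was at 20210 to 28158 CPM, with 1 of 5 lower. The macrophage and monocyte sum was at 76.8 to 113 CPM at 24 h against 120 to 173 CPM in sham. Of its 5 markers, 1 was lower then, and 2 were higher at 48 h. The mural sum was at 654 to 766 CPM at 24 h and 379 to 655 CPM at 48 h against 735 to 844 CPM. Of its 4 markers, 1 was higher and 1 lower at each time. The endothelial sum was at 574 to 714 CPM at 24 h against 397 to 469 CPM, with 1 of 5 higher and 1 lower. The part of these markers in the results was not tested.

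**Figure D5:**
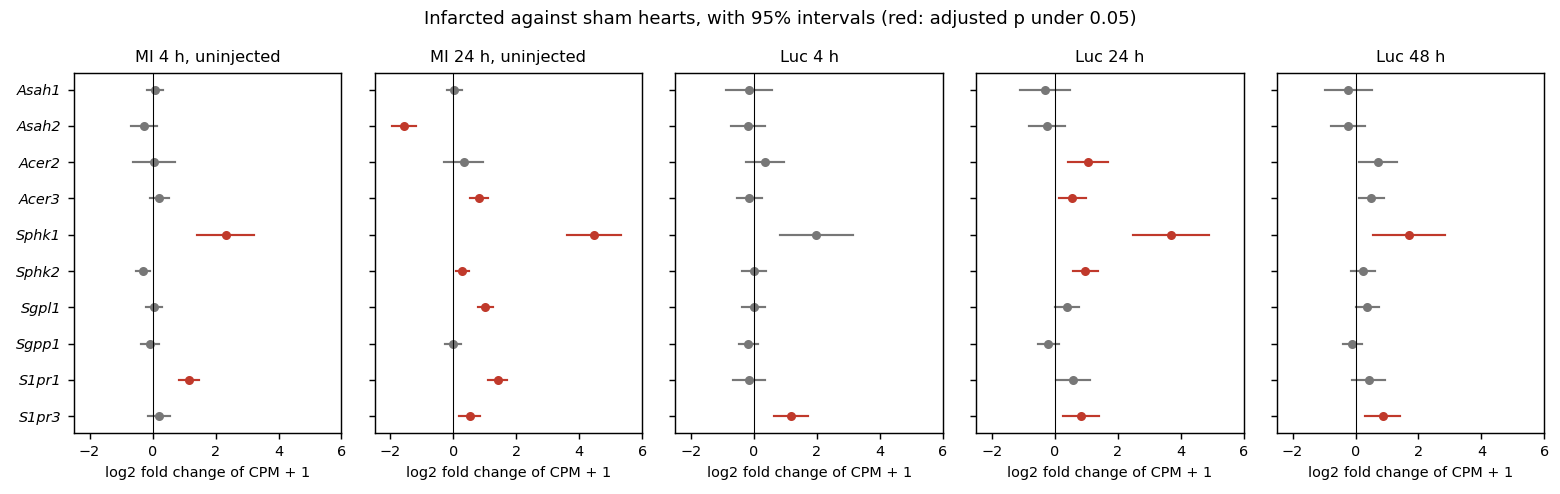
Log2 difference of CPM + 1 from sham for the 10 members, in uninjected hearts at 4 and 24 h post-MI and in Luc modRNA hearts at 4, 24 and 48 h, with 95% intervals from limma and red marking an adjusted p under 0.05. Sphk1 has the highest point in every panel, the intervals of Asah1 and Sgpp1 include 0 in all 5, and Asah2 has its one red mark, below 0, in the uninjected hearts at 24 h.

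Per kb of the longest coding transcript of GENCODE, S1pr1 was the highest member in sham hearts of both tables, at 15.8 and 22.4 CPM per kb. Asah1 followed at 8.46 and 10.5 CPM per kb, and Sphk1 at 0.21 CPM per kb in the first table and Acer3 at 0.52 CPM per kb in the second were the lowest. At 24 h post-MI in the uninjected hearts, Sphk1 had 14.3 CPM per kb, which put it behind S1pr1, at 42.7 CPM per kb, and ahead of the other 8. In the Luc hearts at 24 h, Sphk1 was again next to S1pr1, at 19.4 against 33.7 CPM per kb. These ranks rest on GENCODE lengths, whereas reads were counted on RefSeq models. The counted span of Acer2 ended at 86932491 rather than 86934822, and that of Acer3 began at 98213660 rather than 98206389. That of Asah2 ran from 31984651 to 32103141 rather than from 31982597 to 32108211. Levels per kb of Acer2, Acer3 and Asah2 may thus be understated, and their ranks against Asah1 and Sphk1 are uncertain.

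The other genes of the pathway were taken as 13 genes of S1P transport, receptors and turnover and 10 genes of ceramide supply, of which 7 and 10 passed the filter of each table. None of those that passed the filter was called between AC and Luc hearts at 4 h or 24 h, and the others were not tested. At 48 h, 2 of 7 S1P genes were higher in AC hearts and none lower, against 12.1% and 3.27% of all genes, with a median log2 difference of 0.06 against 0.14 over all genes. S1pr2, a further S1P receptor, had 14.4 ± 1.57 CPM in AC and 6.49 ± 1.90 CPM in Luc hearts (log2 difference 1.07, standard error 0.17, limma q = 0.00030). Plpp2, a lipid phosphate phosphatase, had 5.29 ± 0.58 and 3.05 ± 0.58 CPM (log2 difference 0.64, limma q = 0.016), and was not called without Luc library 3 (limma q = 0.073). S1pr2 was also the pathway gene whose AC minus Luc difference was higher at 48 h than at 4 h (1.31, standard error 0.24, limma q = 0.0071), as it was for 2.88% of all genes. Without Luc libraries 1 and 3, S1pr2 still differed at 48 h (0.76, limma q = 0.027), whereas its change from 4 h did not pass the test (limma q = 0.070), nor did Plpp2 at 48 h (0.52, limma q = 0.21).

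Of the 10 ceramide supply genes, 1 was higher and 1 lower in AC hearts at 48 h, against the same 12.1% and 3.27% of all genes, with a median log2 difference of 0.18 against 0.14. Cers6, a ceramide synthase, differed by 0.60 (limma q = 0.026), and Sgms1, which makes sphingomyelin from ceramide, by -0.61 (limma q = 0.022). After rescaling by median ratios, Cers6 no longer passed the test (limma q = 0.093), while S1pr2 (limma q = 0.00079), Plpp2 (limma q = 0.042) and Sgms1 (limma q = 0.0074) did, and Smpd1, the acid sphingomyelinase, went from -0.26 (limma q = 0.21) to -0.41 (limma q = 0.032). Without Luc libraries 1 and 3, neither Cers6 (0.36, limma q = 0.38) nor Sgms1 (-0.27, limma q = 0.47) passed, and each was also lost on leaving out single libraries, Cers6 without AC 2, AC 4, Luc 1 or Luc 3 and Sgms1 without AC 5, Luc 1 or Luc 3.

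Against sham, none of these genes passed the test at 4 h post-MI in either table. In the uninjected hearts at 24 h, 4 of 7 S1P genes were higher and 1 lower, and 7 of 10 ceramide supply genes were higher and 3 lower, where 35.6% of all genes were higher and 30.3% lower. The largest log2 differences were 2.56 for Sgms2, a sphingomyelin synthase, which went from 1.33 ± 0.21 to 13.0 ± 3.44 CPM (limma q = 1.8e-06), 1.92 for Plpp2 (0.95 ± 0.09 to 6.54 ± 1.83 CPM, limma q = 4.2e-06) and 1.18 for Cers2, a ceramide synthase (28.8 ± 2.11 to 66.6 ± 6.75 CPM, limma q = 4.3e-06). In the Luc hearts at 24 h, 2 of 7 S1P genes were higher and none lower, and 2 of 10 ceramide supply genes were higher and 1 lower, against 25.3% and 8.79% of all genes, led by Sgms2 (1.25, limma q = 0.049), Spns2, an S1P exporter (1.11, limma q = 0.00066), and Plpp3, a lipid phosphate phosphatase (0.74, limma q = 0.00026). Both ceramide supply genes that were higher there, Sgms2 and Ugcg, missed the threshold after rescaling by median ratios (limma q = 0.092 and 0.16). Sgms2 was also lost without Luc library A, Luc library C or either sham library. At 48 h, 2 S1P genes were higher and 1 lower, and no ceramide supply gene was higher and 1 was lower, against 13.7% and 16.4% of all genes, with the largest differences in S1pr2 (0.91, limma q = 0.0027), Cers4, a ceramide synthase (-0.70, limma q = 0.0026), and Plpp2 (0.58, limma q = 0.041). Plpp2 was lost without Luc library 1, 2 or 4 or either sham library.

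Genes whose levels followed a member most closely in both tables were sought among 7342 genes that reached a mean of 10 CPM in each, by the smaller of 2 Pearson correlations of log2(CPM + 1), over 10 and over 24 libraries. The libraries share time points and cell makeup, so these values describe the tables only. For Sphk1 these were Mt2 (0.98 and 0.98) and Mt1 (0.99 and 0.97), which encode metallothioneins, and Hdc (0.98 and 0.95), which encodes histidine decarboxylase. For S1pr1 they were Ddx3x (0.89 and 0.88), Erbin (0.83 and 0.85) and Wdr26 (0.81 and 0.82). For Asah1 the nearest genes were less close, the haemoglobin genes Hba-a1 (0.64 and 0.58) and Hba-a2 (0.63 and 0.58), with Tmem88 (0.52 and 0.47). Asah1 stayed between 21.7 and 27.4 CPM in the first table, and in the second its values above 32.9 CPM were all in AC libraries. The first correlation thus rests on a narrow range and the second largely on the AC libraries. The summed red blood cell markers were at 1465 to 6326 CPM in the AC 4 h libraries and at 1033 to 1567 CPM in the Luc 4 h libraries, and AC library 1 had the highest of both Asah1 and red blood cell markers.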

How the data were processed

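The members, the pathway lists and the marker lists were chosen with earlier results of these data known. The authors mapped their reads to mm10 using STAR. Gene-level quantification against RefSeq was done in Partek Flow by expectation maximization, by which a read with several matches is shared out, and was followed by TMM normalization. Whether strand was used in counting is not given in the sources used here. The deposited values are in CPM. The paper describes only the uninjected hearts, and the same processing was taken to hold for the second table. Because all of its libraries bottom out at a value of 1, 1 was taken off each value.

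Depth was estimated from the value of 1 read, the lowest value of a library in the first table and its most frequent value above 0 in the second. Of the values under 1 CPM, 81.5% to 85.8% per library were whole multiples of it within 0.02 of a read, too few to recover reads for a count test. One read is worth between 0.0241 and 0.0479 CPM.

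Differences were tested within each table with limma 3.58.1 in R 4.3.3 (lmFit, then eBayes allowing the variance to follow the mean) on log2(CPM + 1), with all groups of the table in a single model and no covariates, for the 12487 and 12555 genes averaging 1 CPM or more. Benjamini-Hochberg adjustment over all of them gave the q value, with a threshold of 0.05. On this scale a fold change of a low gene is understated. Changes of the AC to Luc difference between times were tested as contrasts of the same model. An exact permutation test had been planned for members under the filter, and none was. Ratios are of mean CPM without a pseudocount, with Python 3.11 and pandas 2.3.3. Per-kb levels used the longest coding transcript of GENCODE M21 on GRCm38.

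The fitting step was tested on simulated data in which 200 genes were changed, all with a mean of 10 CPM or more. Counts varied around their means with the same fixed spread for every gene, unlike the data. For MI 24 h against sham, 73 of 100 genes changed 2-fold and 100 of 100 changed 4-fold were found among 13099 genes, with 12 false calls, and at AC against Luc 4 h and 24 h there were 6 and 8 false calls.

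Genes named were all 10 members, the pathway genes with a q value under 0.05 between AC and Luc, the 3 largest such changes against sham, and the 3 genes most like Asah1, Sphk1 and S1pr1. Smpd1 and Ugcg, named for a call that changed with rescaling, and the neighbours of Asah1 were chosen after their values were seen. The alternatives were a pseudocount of 0.1, no filter, no trend, array weights, median-ratio rescaling, the compared groups alone, a block for the replicate number, and fits that each omit 1 library. Fits without Luc 48 h libraries 1 and 3, or 2 and 4, were added after the data were seen. Protein levels and modRNA translation assays were not analysed here, and 1 gene of the ceramide supply list is not reported here.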

Additional observations from a re-analysis of the deposited data

Results flagged for a closer look

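Of 50 checks, 10 members in each of 5 groups of 4 libraries, 3 found a library far from the other 3 of its group, where chance gives about 1 in 20. In AC hearts at 4 h, library 2 had 152 CPM of S1pr1 against 71.5 to 76.0 CPM, and 22.9 CPM of Asah2 against 11.0 to 11.6 CPM. That library is titled 4hAC2-2. Over the genes that passed the filter it correlated at 0.940 to 0.970 with the others of its group, whose highest correlations were 0.981 to 0.989. In Luc hearts at 4 h, library 3 had 5.55 CPM of Acer3 against 4.95 to 5.01 CPM, a narrow range.

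The AC to Luc difference changed with time for 2 members by the limma test of the change itself. For Asah1 the log2 difference changed by -5.27 from 4 h to 24 h (higher in 3 of 3 AC libraries at 24 h and 4 of 4 at 4 h) and by -6.70 from 4 h to 48 h. For Acer2 it changed by -1.61 from 24 h to 48 h and by -1.37 from 4 h to 48 h, with 4 of 4 AC libraries below every Luc library at 48 h. The titles do not number the 24 h or 48 h libraries together with those at 4 h, so time and set of libraries cannot be told apart in these changes. The cause was not tested.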

How the results depend on the processing

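Over 1880 refits of single members, no value past the threshold in either fit changed sign, 43 lost a q value under 0.05 and 28 gained one. The number of members called moved by over 1.5 times under the following settings. For AC against Luc it was 0 at 24 h with the compared groups alone and 4 at 48 h with array weights (Asah1, Acer2, Acer3 and Sgpl1). For Luc against sham it was 2 at 4 h with a pseudocount of 0.1 or the compared groups alone (S1pr3 and Sphk1), 3 at 24 h with median-ratio rescaling, and at 48 h 0 with array weights and 1 with the compared groups alone. Without Luc 48 h libraries 1 and 3 it was 0 for Luc 48 h against sham, 0 for the change from 24 h to 48 h and 1 for that from 4 h to 48 h, and without libraries 2 and 4 it was 5, 2 and 4. Array weights gave 2 for the change from 24 h to 48 h. With single libraries left out, whether or not the count moved that far, the ranges were 0 to 1 at Luc 4 h, 3 to 4 at Luc 24 h, 1 to 4 at Luc 48 h, 1 to 2 at MI 4 h, 6 to 7 at MI 24 h, 2 to 3 for AC against Luc at 48 h, and for the changes 0 to 2 (24 h to 48 h) and 1 to 3 (4 h to 48 h). Asah1 passed the test in all 15 alternatives at 4 h. The cause of these changes was not tested.

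With the replicate number as a block (replicate block), 0 members were called for AC against Luc at 24 h and 0 at 48 h, 2 for Luc 4 h and 1 for Luc 48 h against sham, and 1 for AC against Luc at 4 h. Blocked limma q values were 0.061 and 0.064 for Asah1 at 24 h and 48 h and 0.087 for Acer2 at 48 h, 1.1e-05 for Sphk1 in Luc 4 h against sham, and 0.25 for Sphk2 in MI 24 h against sham. The deviations of same-numbered libraries correlated over 0.1 in some pairs and not in others, with r from -0.141 to 0.252 for AC and Luc at 4 h, -0.071 to 0.092 at 24 h and -0.206 to 0.197 at 48 h, and from -0.265 to 0.119 for Luc and sham. In the uninjected hearts r was 0.125 for the 1 pair of MI 4 h and sham, -0.0486 and -0.0567 for MI 24 h and sham, and 0.0153 and 0.345 for MI 24 h and MI 4 h. No comparison with 3 or more pairs had all of them over 0.1, so the numbers were not taken to pair them.

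Depth limits Sphk1 in the uninjected sham hearts most, at an estimated 11 to 21 reads. The second table has only 2 sham libraries, and leaving out 1 of them ended calls at all 3 times.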
